A study of Homo sapiens with 5 samples.

Results

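The subject is a set of 317 isolated genome regions where both activin-treated libraries of a SMAD2 ChIP-seq series had a summit and neither palbociclib library did. Summits are the single-base centres of peaks, listed library by library. Summits of the 4 libraries on chromosomes 1 to 22 of hg19 were chained where neighbours lay at most 200 bp apart, which gave 112897 regions. A member had a summit in both activin lists, none in a palbociclib list, and no palbociclib summit within 5 kb of either end. The 317 members were 0.281% of all regions, 1.05% of the 30154 regions held by both activin libraries, and 12.5% (95% exact Clopper-Pearson interval 11.3 to 13.9, counting error only) of the 2526 activin-only regions. The interval treats regions as independent, although all come from the same 4 libraries. It leaves out the spread between libraries and the larger shifts with the gap and distance settings. Activin-only regions, with or without a palbociclib summit nearby, were 8.38% of those held by both activin libraries. Members were chosen by the listed summits of these same 4 libraries, so presence, absence and distance to palbociclib summits are descriptions with no test.

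T47D is an established cell line from a human breast cancer of the luminal, estrogen receptor-positive type. All 4 libraries came from T47D cells given activin A at 50 ng/ml for 1.5 h and were precipitated with an antibody against SMAD2. The 2 libraries of the palbociclib group came from cells that also received palbociclib at 1 µM for 24 h, and the 2 libraries of the activin group from cells without it. The model is 1 cell line, and the labels do not say whether replicates were separate cultures, so their spread may be technical. A further sample, input DNA from untreated cells, was not analysed here, nor was any library of SMAD2 without activin.

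Activin A belongs to the TGF-β group of secreted ligands. Its receptors phosphorylate SMAD2, which joins SMAD4, enters the nucleus and is found at promoters and enhancers together with other transcription factors. Palbociclib blocks CDK4 and CDK6, kinases that phosphorylate the retinoblastoma protein RB. Unphosphorylated RB holds E2F factors in check, and proliferating cells use E2F and later the FOXM1 and MYB-MuvB factors to transcribe genes of DNA replication and mitosis.

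The activin lists held 50440 and 53069 summits and the palbociclib lists 61533 and 63761, or 51754 ± 1859 and 62647 ± 1575 (SD, n = 2 for each). The lists did not overlap in length, and p was 0.333 by an exact two-sided permutation test, which can give nothing smaller with 2 libraries in each group. Read depth is unknown for these lists, and longer palbociclib lists leave fewer places without a palbociclib summit. The mirror rule, which asks for both palbociclib summits and none of activin within 5 kb, found 1572 regions. Those were 26.3% of 5968 palbociclib-only regions and 4.27% of the 36844 regions held by both palbociclib libraries. The difference between the directions was not tested.

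Most members were weak, and a few were not. The score of a summit is the authors' own and was read from its lowest values as a −log10 q. The labels name the input as used for peak calling. The score ranks summits within its own list only. In activin replicate 1 the members scored from 1.53 to 67.35 with a median of 6.25, and in activin replicate 2 from 1.31 to 54.47 with a median of 5.87. The medians over the 2209 activin-only regions with a palbociclib summit within 5 kb were 7.16 and 7.42, while regions held by all 4 libraries, 22900 in number, had medians of 23.33 and 21.42. In each activin list 250 of the 317 members (78.9%) ranked in the lower 50% of summits. For the mirror regions the shares were 72.9% and 72.2% of their own lists, with median scores of 6.93 and 6.11. Activin-only regions that were not isolated ranked there at 62.3% and 55.0%, and regions held by all 4 libraries at 21.5% and 19.7%. Both scores reached 10 in 18 members and 20 in 4 members, while 169 members scored under 5 in at least 1 list. The members thus range from the edge of detection to a handful of well-ranked positions.

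**Figure D1:**
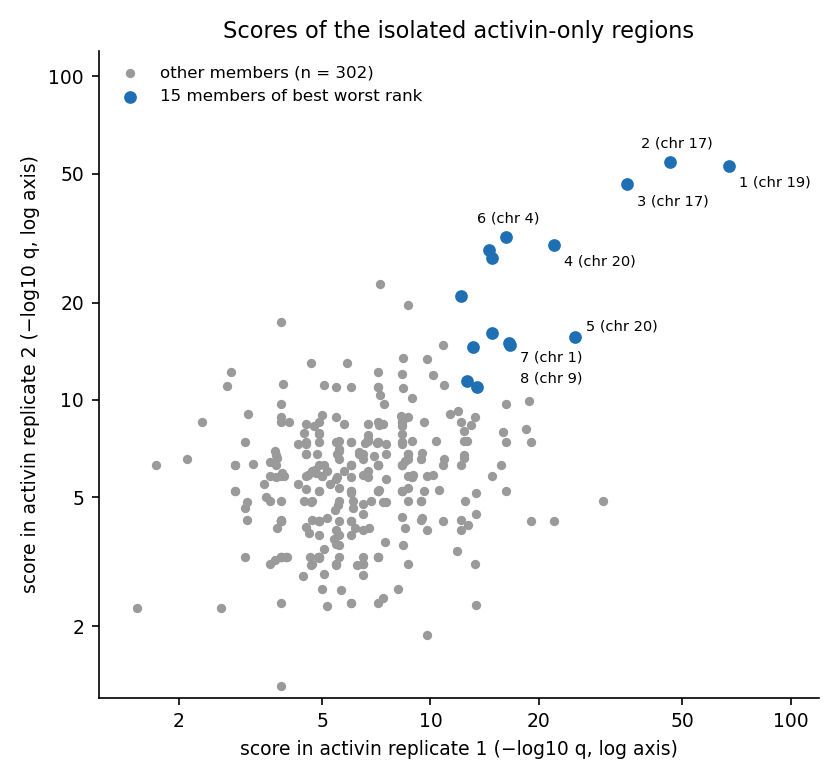
Score of each of the 317 members in activin replicate 1 (horizontal) and activin replicate 2 (vertical), both −log10 q on log axes. Points are regions, the 15 members of best worst rank are blue, and numbers give their order. 3 members stand away from the rest with scores of 35.12 to 67.35 in replicate 1 and 46.37 to 54.47 in replicate 2.

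The scores of the 2 activin lists followed each other loosely, at a Spearman coefficient of 0.29 across the 317 members, which share libraries and are not independent. Across the 22900 regions of all 4 libraries it was 0.87, over a far wider range of scores. It was 0.61 in activin-only regions that were not isolated, and 0.21 between the 2 palbociclib scores of the mirror regions. The 2 activin summits of a member lay a median of 46 bp apart (quartiles 18 and 92 bp), and 170 members (53.6%) had them within 50 bp. The median was 36 bp in regions of all 4 libraries and 63 bp in activin-only regions that were not isolated. The chaining that defines a region caps these distances, so their closeness is partly set by the rule.

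Ordering the 30154 regions of both activin libraries by the worse of their 2 ranks, and cutting them into 10 classes, placed most members near the bottom. The strongest class of 3016 regions held 34 activin-only regions and 0 members, and the next 3 classes held 1, 2 and 1 members. The weakest class held 661 activin-only regions, of which 107 were members, or 3.55% of its 3016 regions. Among activin-only regions, the isolated share was 1.64% in the second class and 15.0% to 16.2% in each of the 4 weakest classes.

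**Figure D2:**
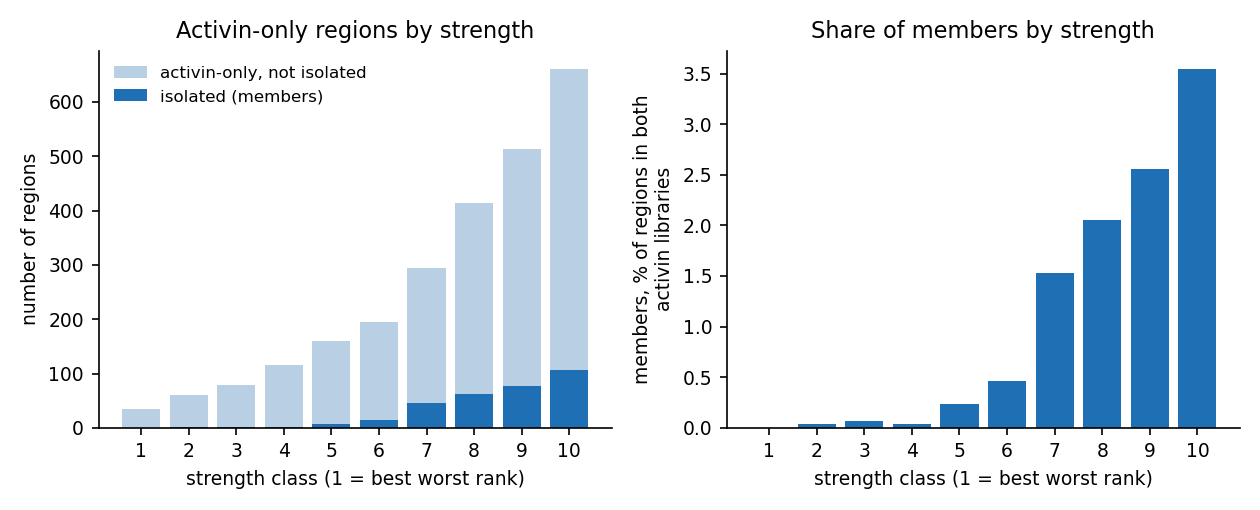
Regions of both activin libraries in 10 classes by their worse rank, class 1 being the strongest. The left bars count activin-only regions, with members in dark blue (0 in class 1 and 107 in class 10), and the right bars give members as a percentage of all regions of the class, which reaches 3.55%.

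The strongest member lay on chromosome 19 at 46431248 to 46431250. Its summits scored 67.35 and 52.94 in activin replicates 1 and 2, at ranks 4824 and 6428, and stood 2 bp apart. The nearest summits of palbociclib replicates 1 and 2 were 25017 and 25004 bp away, at a region found in all 4 libraries. No other activin summit lay within 5 kb, and within 30 kb the palbociclib lists held summits at the shared region only.

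The next 2 members, both on chromosome 17, lie at genes that act together in mitosis. The member at 8113868 to 8113870 scored 46.21 and 54.47 (ranks 7580 and 6293), again with summits 2 bp apart. This position is known as the start of AURKB, the Aurora B kinase that corrects chromosome attachment and drives cytokinesis. Its nearest palbociclib summits lay 10319 and 10231 bp away, in a stretch with 20 and 21 palbociclib summits within 50 kb. The member at 76210376 to 76210399 scored 35.12 and 46.37 (ranks 9690 and 7368), 7769 and 13585 bp from the palbociclib summits. Those summits scored only 3.68 and 6.38, and the nearest region of all 4 libraries was 15163 bp away. The member is at the start of BIRC5, which encodes survivin, a partner of Aurora B in the chromosomal passenger complex. Both loci are thus busy stretches where other summits were listed in every library and these positions in the activin libraries only, as the rule required.

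Gene names attached to regions here are general knowledge of the hg19 map, recognised after the positions had been seen. Distances to gene starts were not measured, because the gene table used is on GRCh38.p14 and positions of different builds were not mixed. A name says which gene a position is known to lie at or beside, and not whether SMAD2 acts on that gene. A member beside a gene need not be at its start, and whether such starts had palbociclib summits was not measured. Summits of all 4 libraries lay within 30 kb of the members beside UBE2C, CDC25B, CCNB1 and PLK1. Membership thus does not mean that the surroundings of a gene lacked palbociclib summits. The table served only to check chromosomes: all 16 symbols named were on the chromosome of their region. The 16 genes belong to lists of 270 cell cycle genes, but how many genes of these lists, or of the 46 genes listed for the activin and SMAD pathway, start near a member was not counted. The number recognised is therefore no measure of enrichment. Only genes of the cell cycle lists were named, and members given without a name may lie at other genes. A cell cycle theme among the names thus follows from that choice.

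Member 4 in this order was on chromosome 20 at 44446220 to 44446245, beside UBE2C, the ubiquitin-conjugating enzyme of the anaphase-promoting complex. It scored 21.96 and 30.15 (ranks 13986 and 10663). The nearest palbociclib summits were 5264 and 5279 bp away, close to the 5 kb limit. All 4 libraries had summits at −5.29 to −4.92 kb from its centre. There activin replicates 1 and 2 scored 65.63 and 61.8, and palbociclib replicates 1 and 2 scored 56.38 and 43.06. Next came chromosome 20 at 3788188 to 3788287, beside CDC25B, a phosphatase that activates CDK1 at entry into mitosis. It scored 25.21 and 15.68, and the palbociclib summits lay 11334 and 11542 bp off. Those palbociclib summits scored 27.71 and 15.58, and activin replicates 1 and 2 had summits close to them, scoring 36.55 and 39.06. A second member, at 3788879 to 3788983 with scores of 8.65 and 5.36, adjoined the first, so this locus held a pair of activin summits in each activin list.

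Members 6 to 8 were on chromosome 4 at 154265834 to 154265892 (scores 16.21 and 31.93), chromosome 1 at 214851879 (16.55 and 15.01) and chromosome 9 at 37511393 to 37511475 (16.60 and 14.75). The summits of both activin libraries on chromosome 1 fell on the same base. On chromosome 4, palbociclib replicate 2 had a weak summit with a score of 2.50 at 5751 bp, and the nearest of palbociclib replicate 1 was at 88680 bp. On chromosome 9 both palbociclib libraries had their nearest summit about 25 kb away, at 25307 and 25328 bp. The distance that makes a member isolated can thus rest on a single weak palbociclib summit or on a shared strong region.

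**Figure D3:**
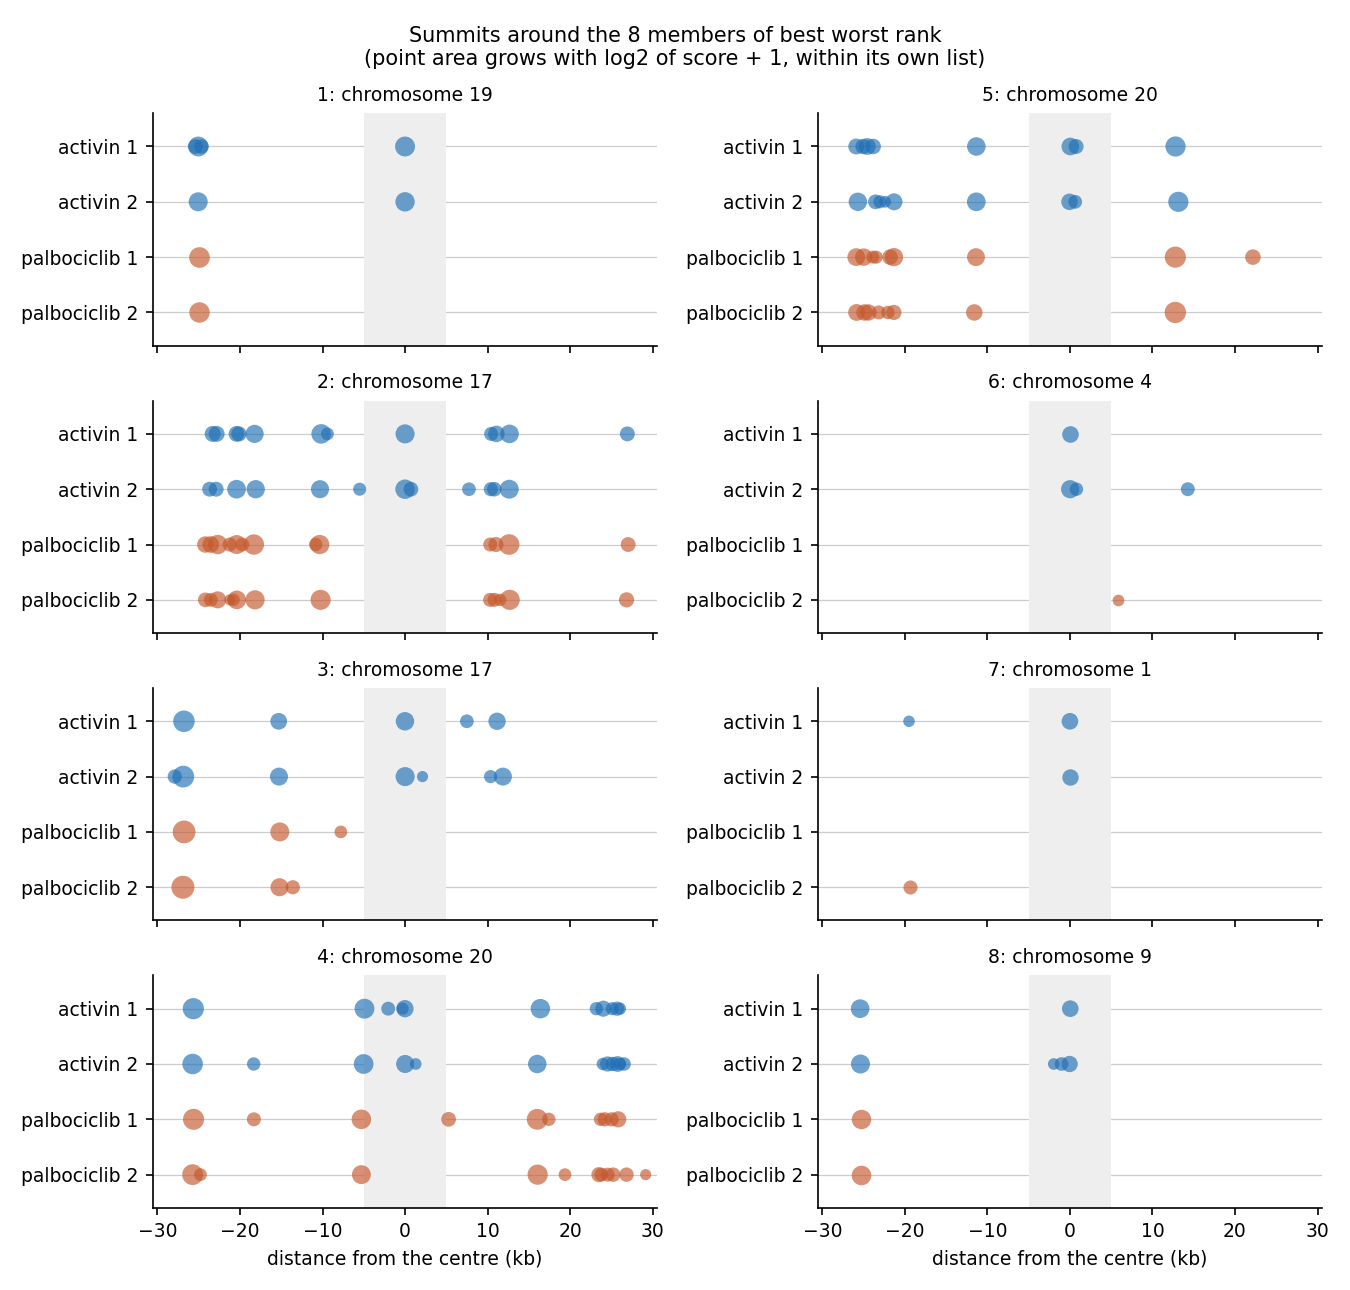
Summits of each library within 30 kb of the centre of the 8 members of best worst rank, with distance in kb on the horizontal axis, 1 row a library, activin in blue and palbociclib in orange. Point area grows with the score, and the grey band marks 5 kb either side. Member 2 is the AURKB locus, with summits of all 4 libraries on both sides of the activin-only position. Member 3 is the BIRC5 locus, where the palbociclib summits lie on the left only.

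The other members of the strongest 15 had worse ranks. They were on chromosome 18 at 37380087 to 37380205 (14.83 and 16.08), chromosome 19 at 2462397 to 2462404 (14.83 and 27.41) and chromosome 5 at 172067963 to 172068021 (14.57 and 28.99). They were also on chromosome 11 at 124609699 to 124609809 (13.15 and 14.56), chromosome 5 at 141220354 to 141220407 (12.60 and 11.41) and chromosome 18 at 11136474 to 11136518 (13.46 and 10.96). The remaining member of the 15 is at the start of SPC25, a kinetochore subunit of the NDC80 complex, on chromosome 2 at 169746890 to 169746897. Its summits scored 12.13 and 20.88, stood 7 bp apart, and lay 74023 and 73974 bp from the nearest palbociclib summits. Activin summits were also few there, with 0 and 1 others within 50 kb.

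Members at other mitotic genes were weaker. Beside PLK1, the Polo-like kinase of mitotic entry, 2 members lay on chromosome 16 at 23702230 to 23702317 (scores 5.55 and 3.81) and 23702948 to 23702961 (6.69 and 7.81). Their nearest palbociclib summits were at least 12151 bp away, beside a region held by all 4 libraries. Beside CCNB1, which encodes cyclin B1, the partner of CDK1, 2 members lay on chromosome 5 at 68474499 to 68474509 (7.38 and 8.42) and 68475659 to 68475713 (12.46 and 4.86). The second of these was the member nearest to the isolation limit, with a palbociclib replicate 1 summit of score 4.89 at 5039 bp. All 4 libraries also had summits at −12.47 to −12.06 kb from the centre of this locus. There palbociclib replicates 1 and 2 scored 129.63 and 82.19, and activin replicates 1 and 2 scored 35.39 and 66.43.

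Beside CDK1 itself, the member on chromosome 10 at 62557910 to 62558050 scored 5.07 and 3.46. Beside TACC3, a spindle microtubule protein, the member on chromosome 4 at 1747969 to 1748141 scored 8.35 and 12.04. Beside PTTG1, which encodes securin, the member on chromosome 5 at 159857104 to 159857168 scored 6.56 and 7.35. All 3 had their nearest palbociclib summits over 8 kb away, from 8210 bp at PTTG1 to 19740 bp at TACC3. CDCA8, which encodes borealin, is a further subunit of the chromosomal passenger complex, and the member beside it on chromosome 1 at 38177184 to 38177194 scored 6.50 and 3.11. The member within SMC4, a condensin subunit, on chromosome 3 at 160131604 to 160131884, scored 2.79 and 12.24, so the 2 activin lists gave it very different ranks of 49007 and 19640.

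Genes of DNA replication and of S-phase entry also had members beside them. MCM2 and MCM4 encode subunits of the replicative helicase. The member beside MCM2 on chromosome 3 at 127342120 to 127342265 scored 7.54 and 7.30, with palbociclib summits 6334 and 24908 bp away. Beside MCM4, 2 members on chromosome 8 at 48891479 to 48891490 and 48891930 to 48891971 scored 4.66 and 4.85, and 2.73 and 11.06. Beside CCNE2, which encodes cyclin E2, the partner of CDK2 at S-phase entry, 2 members on chromosome 8 at 95890374 to 95890453 and 95891265 to 95891407 scored 3.71 and 6.94, and 4.64 and 3.26. The member beside DUT, the enzyme that keeps uracil out of DNA, on chromosome 15 at 48636204 to 48636336 scored 4.66 and 13.01. Each of these positions was low in at least 1 of the activin lists, with a score under 8 in all 6 members.

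Several members had a second one close by. Chaining members at most 10 kb apart gave 301 loci, of which 14 held more than 1 member and 2 held 3. These 14 loci took in 30 of the 317 members (9.46%). Under the mirror rule, 92 of 1572 regions (5.85%) shared a locus, and this difference was not tested. The locus of 3 with the better ranks spanned 1.13 kb on chromosome 15 from 32933939 to 32935068, with scores of 6.0 to 10.93 in activin replicate 1 and 5.24 to 11.09 in replicate 2. The other, on chromosome 7 from 73632146 to 73638634, had scores of 3.26 to 5.56. On chromosome 19 a pair from 2462397 to 2463049 scored 8.65 to 14.83 and 19.58 to 27.41, with a palbociclib summit 5216 bp away.

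**Figure D4:**
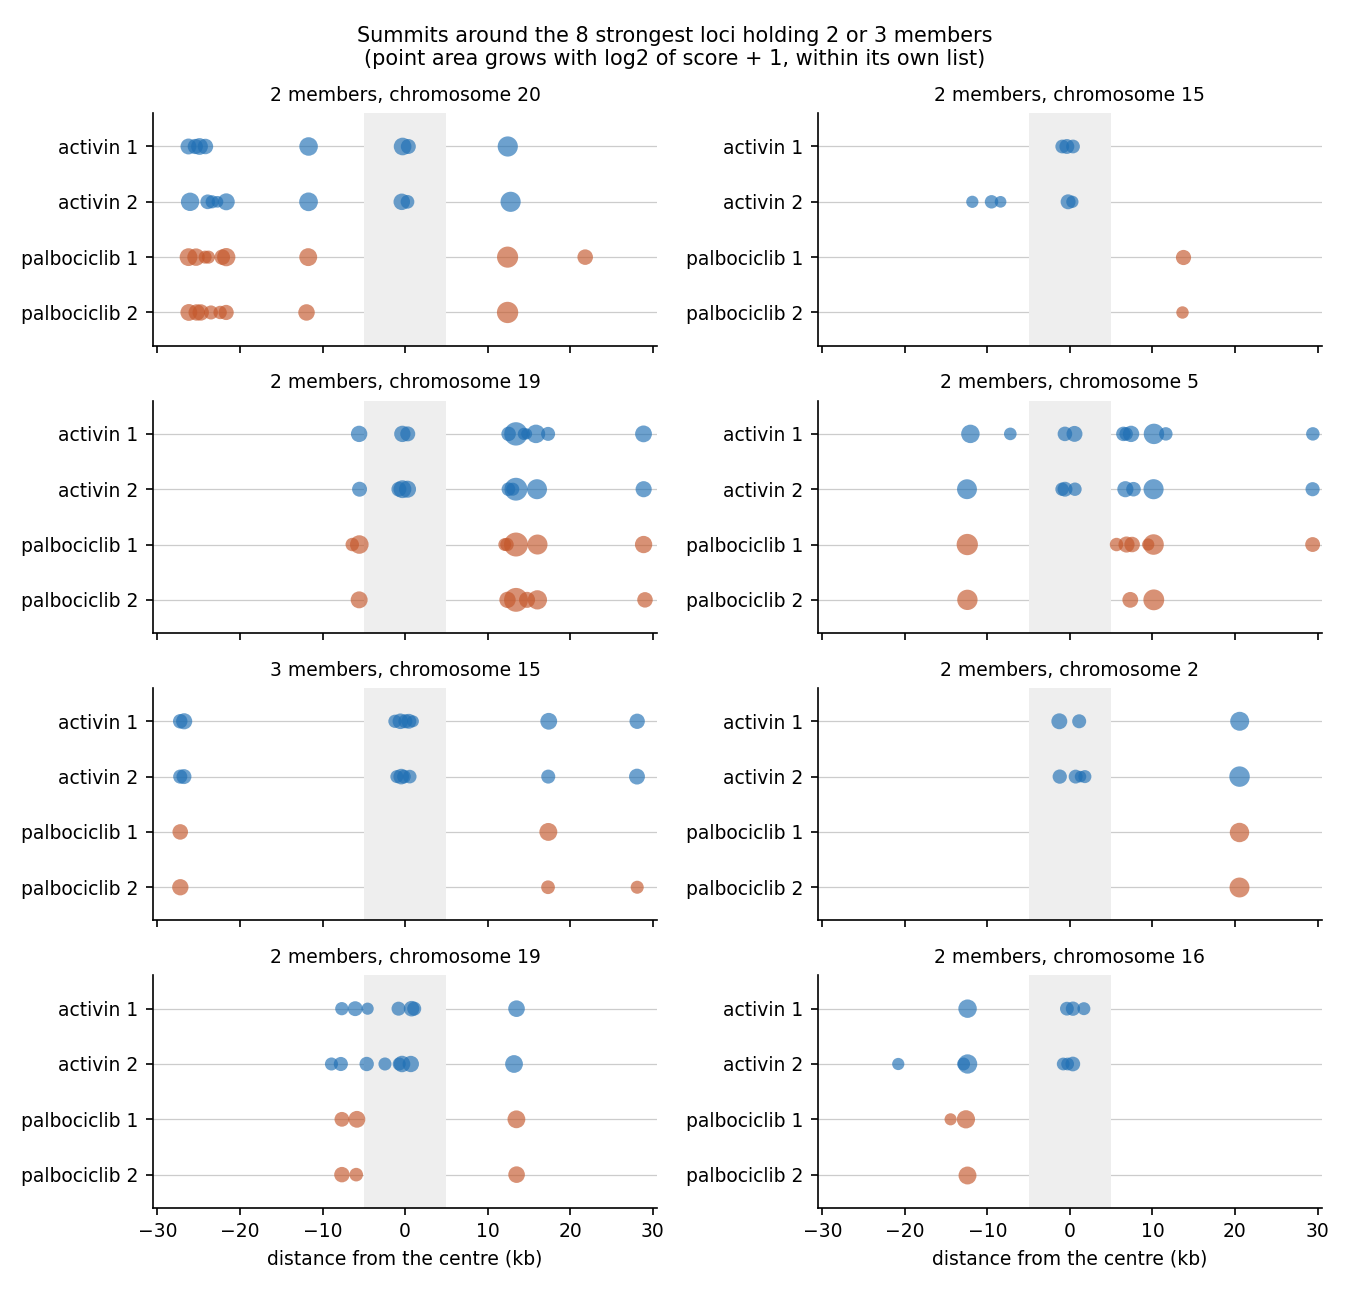
Summits of each library within 30 kb of the centre of the 8 strongest loci that hold 2 or 3 members, drawn as rows by library with distance in kb on the horizontal axis and point area growing with the score. The chromosome 20, 5 and 16 panels are the CDC25B, CCNB1 and PLK1 loci, and each central group of 2 or 3 members is seen in both activin rows and in neither palbociclib row.

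Extra activin summits, including those in a single library, stood within 5 kb of 81 members (25.6%), and 44 members had them in both libraries. For 236 members the region was the only activin position within 5 kb. Extra palbociclib summits accompanied 377 of the 1572 mirror regions (24.0%). The share was 95.6% for activin-only regions that were not isolated and 66.5% for regions of all 4 libraries. Isolation picks sparse stretches, so these last shares are partly set by the rule.

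The nearest palbociclib summit lay at a median of 16.8 kb (quartiles 9.15 and 41.7 kb). It was within 10 kb for 95 members and over 50 kb away for 68, and 29 had none within 100 kb. Taken apart, palbociclib replicates 1 and 2 lay at medians of 19.3 and 19.2 kb, and replicate 1 was the nearer in 162 members and replicate 2 in 152. The farthest member, on chromosome 2 at 49987789 to 49987810, scored 19.05 and 7.42 and was 647365 and 647419 bp from the 2 palbociclib lists. Close to the limit, the 3 members just inside lay at 5039, 5044 and 5092 bp, on chromosomes 5, 19 and 1. The 3 activin-only regions just outside lay at 4947, 4910 and 4878 bp, on chromosomes 16, 4 and 12, with scores of 6.0 to 6.96 and 2.34 to 9.97. The scores just inside were 5.41 to 12.46 and 3.72 to 4.86, and the 2 sets of 3 overlapped in activin replicates 1 and 2 alike.

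**Figure D5:**
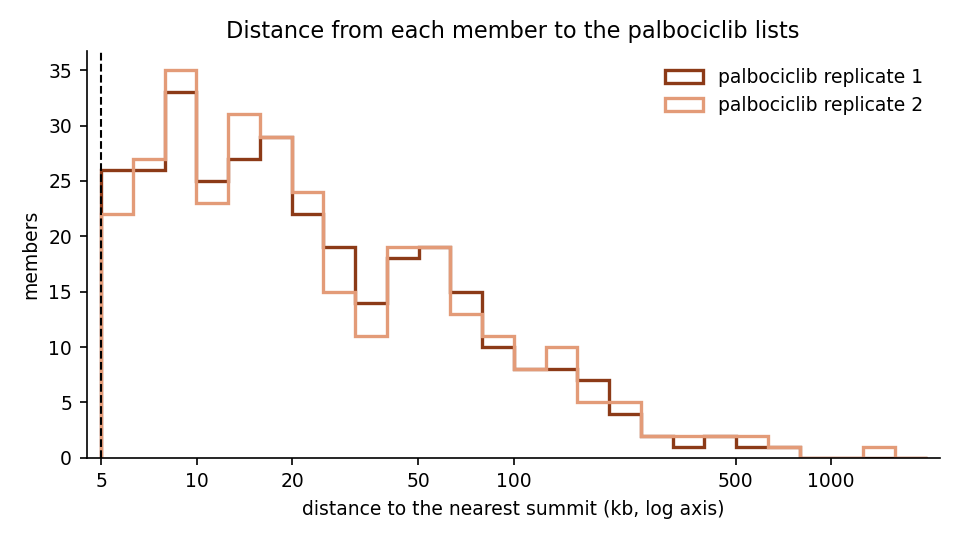
Number of members by distance in kb (log axis) from the region to the nearest summit of palbociclib replicate 1 (dark) and replicate 2 (light), with the 5 kb limit as a dashed line. The 2 libraries give nearly the same distribution, with medians of 19.3 and 19.2 kb.

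Members were found on each of chromosomes 1 to 22. Chromosome 1 held 28, chromosomes 2 and 4 held 26 each, and chromosome 21 held 1. As a share of the regions of both activin libraries on the same chromosome, members were 2.51% on chromosome 18 (10 of 398) and 2.19% on chromosome 4 (26 of 1187). They were 0.507% on chromosome 17 (10 of 1973) and 0.432% on chromosome 6 (7 of 1621), against 1.05% over all 22. Chromosome 18 had the highest of these shares and chromosome 21 the lowest, 0.240%, which is 1 region in 416. Summits were sparse around members: a median of 2 other summits of each activin library lay within 50 kb, against 4 and 5 for regions of all 4 libraries and 10 for activin-only regions that were not isolated. The mirror regions also had a median of 2 other summits of each palbociclib library within 50 kb. Isolation picks sparse stretches, so these medians too are partly set by the rule. No test over chromosomes was made.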

How the data were processed

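MACS2 2.0.9, Bowtie 1.1.0 and Picard are the tools, and hg19 the build, per the submitters' processing notes. Their order was not given in the sources used here. Of their settings, the names of the lists carry a q label, read as a limit of 0.05. The authors deposited 1 summit list a library, called per library and not pooled, whose score was read as −log10 q: the lowest scores were 1.31 to 1.34, just above the 1.30 of q = 0.05. The lists hold no read numbers, so depth is unknown and the lack of a summit is not the lack of SMAD2.

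Positions were made 1-based and chromosomes 1 to 22 kept. Ranks run from the highest score, ties taking the best rank, and a region takes its best summit in each list. Members and gene lists were chosen with earlier results of these data known. The named regions were the 15 members of best worst rank, those recognised at listed cell cycle genes, and 3 either side of the distance limit. Other members at listed genes may have been missed. Gene starts, motifs and sequences, which need hg19, were not used here, so cell cycle loci were named from general knowledge after their positions were seen. The rule's code was tested on simulated data. Python 3.11.15, numpy 2.4.6, pandas 2.3.3, scipy 1.17.1 and matplotlib 3.10.9 were used. Alternatives covered score minimums, list lengths, gaps, distances, pairing by replicate number and dropping each library.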

Additional observations from a re-analysis of the deposited data

Results flagged for a closer look

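Chromosome X lay outside the rule for members. It held 10 regions that meet the rest of that rule, among 33 activin-only regions and 2424 chained regions there. Their highest scores were 12.14 in activin replicate 1 and 20.18 in activin replicate 2. The members were 317 of 2526 activin-only regions and of 112897 chained regions. Whether chromosome X differs from the chromosomes of the members was not tested.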

How the results depend on the processing

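The number of members (317) was 271 with a minimum score of 5 in every list, but only 148 of the members were among them. It was 460 at equal list lengths, with 301 of the members. Distances of 1 and 20 kb gave 646 and 134, and the replicate block, the mean over same-numbered pairs of libraries, 4727. Without activin replicate 1 it was 3551, without activin replicate 2 3038, without palbociclib replicate 1 857 and without palbociclib replicate 2 696, since a group left with 1 library needs less. Requiring a score of 5 or 10 in the activin lists alone, chosen after seeing the data, left 148 and 18.

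The isolated share of activin-only regions (12.5%) was 15.0% with a minimum score of 5, 15.1% at equal lengths, and 9.14%, 25.3% and 49.9% with gaps of 100, 500 and 1000 bp. It was 25.6%, 17%, 8.79% and 5.30% at distances of 1, 2, 10 and 20 kb, 13.7% to 22.9% without each library, 22.9% with the replicate block, and 10.2% and 3.15% with the activin scores of 5 and 10. The cause of these shifts beyond their construction was not tested.

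The log2 difference in list length (0.28) was positive in each of 8 alternatives and ranged from 0.24 to 0.31 when a library was left out. Rank deviations of same-numbered libraries correlated at −0.05 over the 22900 regions held by all 4 libraries. Ranks leave out differences that run through a whole list, so this cannot say whether same-numbered libraries shared a batch. Median scores of whole lists were 9.43 (activin) and 9.39 (palbociclib) in replicate 1, and 8.34 and 8.38 in replicate 2. Alternatives on gene starts and motifs were not run, for want of hg19 positions, and unknown depth limits every count.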
